A study of Mus musculus with 2 samples.

Results

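Snorc, Scrg1, Cytl1, Ncmap and Edil3 encode proteins that are secreted or span the cell membrane, most of them small, and they are described here in cultured chondrocytes with and without miR-140. The 5 genes were taken as a named list, and their values came from all 10 probe sets whose single gene symbol on the array is one of these names, out of 18193 genes with such a probe set. The samples were 1 array of miR-140 knockout cells and 1 array of wild-type cells, both from cultured rib chondrocytes of mice aged 5 days with a strain label that names C57BL/6 and CBA. How many animals gave each culture, and which part of the miR-140 locus was removed, are not stated in the labels. According to the design text, the arrays served to find candidate messenger RNA targets of miR-140. With 1 array for each genotype there is no spread between cultures, so no test was possible, and each difference is the knockout log2 signal minus the wild-type log2 signal of these arrays without a replicate check.

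Chondrocytes build cartilage from collagen fibrils filled with proteoglycan, and they also release small proteins into this matrix and carry proteoglycans on their surface. Snorc encodes a small transmembrane chondroitin sulphate proteoglycan of cartilage, and Ncmap encodes a small membrane protein first described in the Schwann cells that wrap peripheral nerves. Scrg1 encodes a small cysteine-rich secreted protein first found in prion-infected brain, Cytl1 encodes a small secreted cytokine-like protein of cartilage, and Edil3 encodes a matrix protein with an integrin-binding motif, first described in embryonic endothelium. No culture of another cell type was set beside these, so how far the genes are restricted to chondrocytes was not measured. How pure the cultures were was not measured either.

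miR-140 is a microRNA typical of cartilage, and it is cut from a hairpin that lies inside the Wwp2 gene. MicroRNAs pair with messenger RNAs mainly through their seed, bases 2 to 8 of the mature strand. The hairpin gives the mature strands miR-140-5p and miR-140-3p. The hairpin and miR-140-3p are shown because miR-140 defines the knockout, with sequences from RefSeq (GRCm38.p6). The hairpin lies at chr8:107551244-107551313 on the plus strand, with the mature miR-140-3p in capitals, and the mature strand follows at chr8:107551288-107551308 with its seed in capitals.
Mir140 hairpin: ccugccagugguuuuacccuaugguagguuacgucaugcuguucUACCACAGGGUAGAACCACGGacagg
miR-140-3p: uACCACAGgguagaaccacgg
The array does not measure the mature microRNA, and no 3′ untranslated sequences were used here, so the 5 genes were not searched for seed matches.

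The arrays spanned log2 signals of 3.28 to 14.08 in the knockout and 3.24 to 14.20 in the wild type. A floor was set at a log2 signal of 7, since dimmer probe sets lie close to background, and 9897 genes that reached it in either array were compared. Their median difference was -0.05. Wwp2 read 7.13 in the knockout array and 9.65 in the wild-type array (-2.52), and its 3 further probe sets above the floor stood at -4.50, -1.88 and -0.99. Xist, which is transcribed from the silenced X chromosome, read 10.60 and Y-linked Kdm5d 4.13 in the knockout array, against 7.01 and 7.75 in the wild-type array, so the cultures also differed in sex or in their mix of sexes, which the labels do not give. The gap in log2 signal between the 3′ and 5′ control probe sets, a sign of RNA integrity, was 0.54 for beta-actin and -0.01 for Gapdh in the knockout array, against 0.81 and 0.13 in the wild-type array. For the small-subunit ribosomal RNA the gap was 0.27 in the knockout array and -0.71 in the wild-type array, the other way round. The part of these differences in the results below was not tested. The chondrocyte markers Col2a1 (11.98), Col9a1 (11.82) and Sox9 (7.78) were above the floor in the knockout array, as in the wild-type array (13.98, 13.39 and 8.96), and Matn1 stayed under it in both (4.99 and 6.12). The marker Col9a2 was under the floor in the knockout array (6.06) and above it in the wild-type array (9.86).

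Of the 5 genes, 4 had lower signal in the knockout array and Edil3 had slightly higher signal. All of the 4 were at least 2-fold lower, where 1.22% of all genes compared were, and 3 were at least 4-fold lower, where 0.283% were. None was at least 2-fold higher, as 0.475% of all genes were. Lower signal of any size was found for 59.2% of all genes compared and higher signal of any size for 40.0%. The median difference over the 5 genes was -2.06, a description of a list that was chosen with earlier results of these arrays known. In total RNA from a whole culture, fewer cells of a type and less RNA per cell cannot be told apart.

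**Figure D1:**
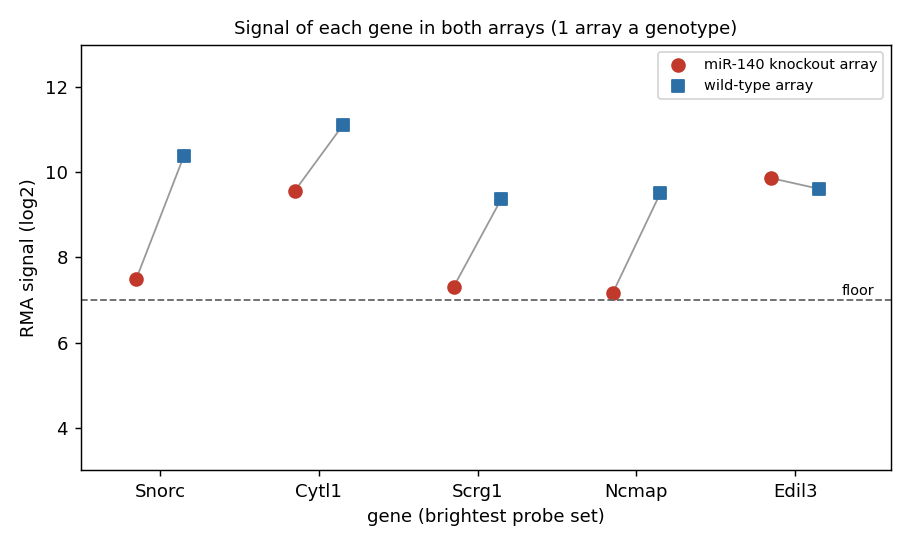
RMA signal on the log2 scale (vertical axis) of the brightest probe set of each gene (horizontal axis), with the knockout array as a circle and the wild-type array as a square to its right, and the floor of 7 dashed. The knockout circles of Snorc, Scrg1 and Ncmap lie between 7.16 and 7.49, just above the floor, while Cytl1 (9.57) stays well above it and Edil3 (9.86) lies above its wild-type square.

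The membrane proteins showed the wider differences. Snorc read 7.49 in the knockout array and 10.38 in the wild-type array, or 180.1 and 1335 on the linear scale. Its difference of -2.89 was 7.41-fold lower and left 13.5% of the wild-type signal. Among the 9897 genes this was the 11th lowest difference.

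Ncmap read 7.16 in the knockout array and 9.51 in the wild-type array, or 143 and 728 on the linear scale. The knockout signal was 5.10-fold lower (difference -2.35), which was 19.6% of the wild-type signal and the 19th lowest difference. At 0.16 above the floor, the knockout value of Ncmap lay closest of the 5 to the range where RMA compresses differences, and Snorc lay 0.49 above it. Both genes had a single probe set, so no further probe set on the array could be set beside these values.

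Because Ncmap is known from Schwann cells, markers of that lineage were read beside it. Of 20 listed Schwann and myelin genes, 17 were named on the array and 7 were above the floor. Of the 7, 1 had higher and 6 had lower signal, against 40.0% and 59.2% of all genes compared. The median difference of the 7 was -0.10. The summed linear signal of the 17 was 4080 in the knockout array and 5980 in the wild-type array. That sum includes S100b, which had the highest wild-type signal and the largest difference of the 17. S100b, a calcium-binding protein that chondrocytes also make, read 9.13 in the knockout array and 11.04 in the wild-type array, a difference of -1.91, with a second probe set at -0.97. The next largest among the 7 genes above the floor were Cnp (-0.29), Mbp (0.18) and Pmp22 (-0.14). Mag, a Schwann and oligodendrocyte adhesion protein (6.41 in the knockout and 6.73 in the wild type), and Egr2, the factor that drives myelination (4.61 and 4.84), lay under the floor in both arrays.

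The secreted proteins Scrg1 and Cytl1 were also lower, by less. Scrg1 read 7.32 in the knockout array and 9.38 in the wild-type array, or 159 and 666 on the linear scale. The knockout signal was 4.18-fold lower (difference -2.06), at 23.9% of the wild-type signal and the 25th lowest difference. Scrg1 was first found in brain, and of 12 listed neuronal genes only Syn1, a synaptic vesicle protein, was above the floor (difference -0.10). The median of the neuronal list was 0.27 with a floor of 6 and 0.10 with no floor, where more of its dim genes entered and its sign turned. Its summed linear signal was 768 in the knockout array and 675 in the wild-type array, with Snap25, a vesicle fusion protein of nerve endings, at 3.78 and 3.69. The list's largest difference was that of Uchl1, a ubiquitin hydrolase, which stayed under the floor at 6.83 in the knockout array and 5.55 in the wild-type array (1.28).

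Cytl1 read 9.57 in the knockout array and 11.10 in the wild-type array, or 761 and 2197 on the linear scale. The knockout signal was 2.89-fold lower (difference -1.53), at 34.6% of the wild-type signal and the 52nd lowest difference. Its knockout value lay 2.57 above the floor, so of the 4 lower genes Cytl1 was the one measured with both values clear of it. The 4 differences spanned 1.36 on the log2 scale, a 2.57-fold range, and whether their order would hold in further cultures was not tested.

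**Figure D2:**
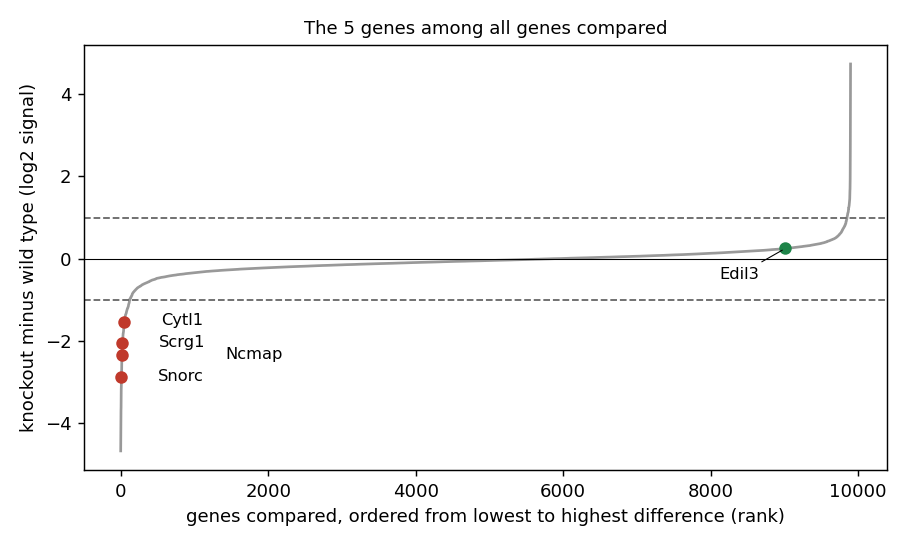
Knockout minus wild-type difference in log2 signal (vertical axis) of the 9897 genes compared, ordered from lowest to highest (horizontal axis, rank), with dashed lines at 2-fold. Snorc (11th), Ncmap (19th), Scrg1 (25th) and Cytl1 (52nd) sit in the steep lower end, and Edil3 (9014th) lies on the flat part under the upper line.

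Edil3 did not share the lower signal. Its brightest probe set, 1433474_at, read 9.86 in the knockout array and 9.61 in the wild-type array, a difference of 0.25 (1.19-fold higher), and 8.92% of all genes compared had a higher difference. A further probe set above the floor, 1425622_at, read 8.27 in the knockout array and 7.29 in the wild-type array, a difference of 0.98 (1.97-fold higher). That is just under 2-fold, which 0.902% of the 15862 probe sets above the floor reached in this direction, and 0.946% of them had a higher difference.

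The remaining 4 Edil3 probe sets lay under the floor in both arrays, at 3.97 to 4.65 in the knockout array and 3.78 to 4.59 in the wild-type array. Their differences were 0.04, 0.19, 0.19 and 0.58, so all 6 probe sets read higher in the knockout array, although dim values of this kind carry little information and all 6 read the same RNA. Among 3838 genes with at least 2 probe sets above the floor, 23.1% had all of those higher in the knockout array, as Edil3 did. The 2 probe sets above the floor differed from each other by 0.73. Of the same 3838 genes, 6.93% had a range as wide, and the median range was 0.25. Which transcripts of Edil3 each probe set detects was not tested. The direction for Edil3 was shared by its probe sets, and its size was not.

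**Figure D3:**
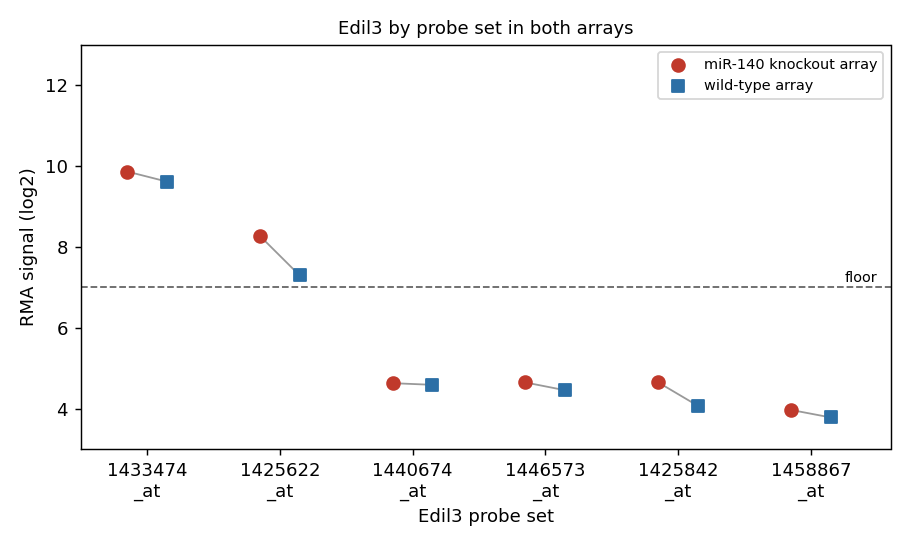
RMA signal on the log2 scale (vertical axis) of the 6 Edil3 probe sets (horizontal axis), with the knockout array as a circle and the wild-type array as a square to its right, and the floor of 7 dashed. Every circle lies above its square, by 0.04 to 0.98, and 2 of the 6 probe sets lie above the floor.

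Endothelial and fibroblast markers were read beside Edil3, which was first described in embryonic endothelium. Of 14 endothelial genes, 4 were above the floor, all with slightly lower signal (Kdr at -0.06, Erg at -0.06, Egfl7 at -0.02 and Flt1 at -0.01). Lower signal of any size was found for 59.2% of all genes compared. The summed linear signal of all 14 was 1089 in the knockout array and 1113 in the wild-type array. Pecam1 (4.77 and 4.81) and Cdh5 (5.08 and 4.81), adhesion proteins that define endothelial cells, were under the floor in the knockout and wild-type arrays. Of 26 fibroblast and perichondrium markers named on the array, 20 were above the floor. Of the 20, 14 had higher and 6 lower signal, against 40.0% and 59.2% of all genes compared. Their median difference was 0.28, and the summed linear signal of all 26 was 55098 in the knockout array and 46253 in the wild-type array. Col3a1, a fibrillar collagen of soft tissue, stood at 1.38, the protease gene Fap at 1.23 and Col14a1 at 1.21, while Postn, a matrix protein of fibrous tissue, stood at -1.26. Further probe sets above the floor stood at 1.56 for Col3a1 and 0.65 for Col14a1. Col1a2 (13.19 in the knockout and 13.06 in the wild type) and Col1a1 (12.46 and 12.18) were bright in both arrays. The part of these marker differences in the result was not tested.

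Reported binding partners and relatives of the 5 proteins were compared from a list of 10 genes. Of these, 5 were above the floor, none of them at least 2-fold different, and their median difference was 0.09. Among these partners and relatives 4 had higher and 1 had lower signal, against 40.0% and 59.2% of all genes compared. Itgav, the integrin chain that the Edil3 protein binds with a beta partner, read 11.38 in the knockout array and 11.29 in the wild-type array (difference 0.09). Another Itgav probe set above the floor stood at 0.75. The beta chain Itgb5 differed by -0.01, and its 4 probe sets ranged from -0.03 to 0.09, so no direction is given for it. Itgb3, the other beta partner, stayed under the floor at 6.31 and 6.25. Mfge8, the closest relative of Edil3, read 11.23 in the knockout array and 11.07 in the wild-type array (0.16).

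Scrg1 protein has been reported to act through Bst1 and the integrin chain Itgb1. Itgb1 stood at 0.29, with further probe sets above the floor at 0.28 and 0.43, and Bst1 lay under the floor (4.08 in the knockout and 4.29 in the wild type). Ccr2, a chemokine receptor proposed for Cytl1, read 7.73 in the knockout array and 7.71 in the wild-type array (0.02), while its 3 other probe sets lay under the floor, with differences of -0.17, 0.05 and 0.45. Fgf2, a growth factor reported to bind Snorc, lay under the floor at 5.63 and 5.25. The leukocyte integrin chains Itgal (0.00) and Itgb2 (0.23), which Edil3 is known to oppose in inflammation, were under the floor as well.

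Other chondrocyte genes for secreted and membrane proteins, among them matrix collagens and receptors, were set beside the 5 genes. Of 28 such genes named on the array, 24 were above the floor, all 24 had lower signal in the knockout array and 19 were at least 2-fold lower, against 59.2% and 1.22% of all genes compared. Their median difference was -1.62, against -0.05 for all genes compared, and it stayed between -1.68 and -1.44 in all 9 other settings run for it. This list and the others were chosen with earlier results of these arrays known, so the contrast with all genes is only a description. By the brightest probe set, the aggrecan gene Acan (-4.03), the collagen chain Col9a2 (-3.80), the Gla-rich matrix protein Ucma (-3.69) and the receptor Fgfr3 (-3.13) stood farthest. A further probe set above the floor stood at -1.30 for Fgfr3, a much smaller difference, and at -3.35 for Ucma. Snorc, Ncmap and Scrg1 thus had differences below the median of this list, Cytl1 lay 0.09 above it, and Edil3 lay above all 24. The 4 genes under the floor, singled out after their values were seen, were Matn1 (-1.13), Chad (-0.96), Cilp (-0.05) and Otor, a secreted relative of Mia, which read 6.94 in the knockout array and 6.00 in the wild-type array (0.94).

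Chondrogenic transcription factors differed by less. Of 19 named on the array, 11 were above the floor, all with lower signal, and 1 was at least 2-fold lower. Over all genes compared these shares were 59.2% and 1.22%. The 8 under the floor went both ways. Pax1 (0.67), Mef2c (0.36), Pax9 (0.16) and Shox2 (0.01) read higher. Foxa3 (-0.40), Foxa2 (-0.34), Barx2 (-0.27) and Nkx3-2 (-0.05) read lower. Sox9, needed for chondrocyte identity, stood at -1.18 with a further probe set at -1.42, its partner Sox6 at -0.49, Foxc1 at -0.43 and Nfatc1 at -0.30. The median over the 11 was -0.17, against -0.05 for all genes compared. Markers of osteoblasts (3 genes above the floor, median -0.90), leukocytes (5 genes, 0.01) and skeletal muscle (1 gene, Des, 0.14) completed the lists. The leukocyte median ranged from just under 0 after median centring to 0.42 with a floor of 8. Of the osteoblast genes, Tnfrsf11b (-1.35) and Omd (-0.90) stood low, and with a floor of 6 the osteoblast median was -0.11. Of the 9 osteoblast genes named on the array, 6 lay under the floor. Among them were Sp7 (6.38 in the knockout and 6.32 in the wild type) and Alpl (6.43 and 6.33). Ibsp (4.35 and 4.49) and Dmp1 (3.70 and 3.85) were dimmer.

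**Figure D4:**
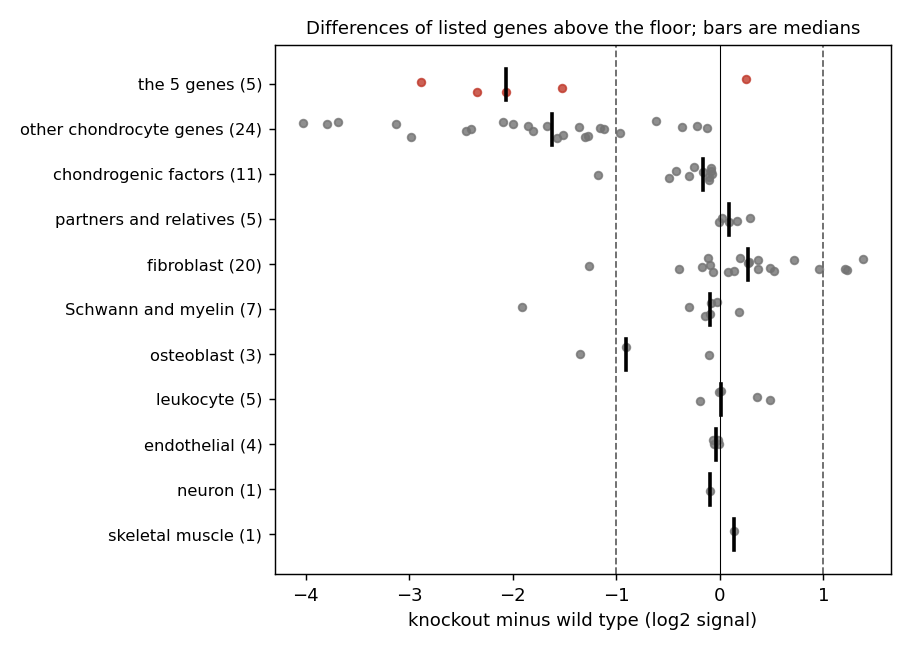
Knockout minus wild-type difference in log2 signal (horizontal axis) of each gene above the floor, by list (rows, with the number of genes), where each point is a gene, thick bars are medians and dashed lines mark 2-fold. The 5 genes (median -2.06) and other chondrocyte genes (-1.62) lie mostly left of the lower line, fibroblast markers (0.28) lie on both sides of 0, from -1.26 to 1.38, and the endothelial points lie close to 0.

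The genes most alike to each of the 5 were taken as the 3 nearest in difference over these 2 arrays, leaving out clone names. For Snorc they were the collagen chain Col9a3 (-2.99), the phosphatase inhibitor Ppp1r1b (-2.77) and the actin-severing protein Scin (-2.73). Next to Ncmap stood the glycosyltransferase B4galnt2 (-2.33), the cartilage protein Cnmd (-2.40) and the iron-binding membrane protein Meltf (-2.42). The knockout values of Ppp1r1b (6.17), Scin (6.13) and B4galnt2 (5.30) lay under the floor, so the size of those differences is less sure. Scrg1 had the secreted glycoprotein Chil1 (-2.06) and the collagen chains Col11a2 (-2.09) and Col27a1 (-2.02) beside it. Cytl1 had the enzyme Cth (-1.54), the Wnt receptor Fzd9 (-1.52) and the cartilage proteoglycan Epyc (-1.51). Within 0.1 of the member's difference lay 1 gene for Snorc, 4 for Ncmap, 6 for Scrg1 and 12 for Cytl1, against 1221 for Edil3, whose nearest genes Fbxo25, Nif3l1 and Nqo2 (each 0.25) are therefore 3 of many.

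Promoter sequences were read for the lower genes because their signals were lower together, and 2 of the 5 genes, Cytl1 and Ncmap, matched the RefSeq table (GRCm38.p6). Each window covers 250 bases before to 50 after a start site, and Ncmap has 2 starts on the minus strand. Any entry of the 5 genes on 1 other chromosome was left out of the windows shown and kept in the shares over all windows. Capitals mark matches to the motifs searched on both strands, which were AACAAT and ACAAAG (cores bound by SOX factors), TATAAA and CCAAT.
Cytl1, chr5:37735269-37735568, plus strand: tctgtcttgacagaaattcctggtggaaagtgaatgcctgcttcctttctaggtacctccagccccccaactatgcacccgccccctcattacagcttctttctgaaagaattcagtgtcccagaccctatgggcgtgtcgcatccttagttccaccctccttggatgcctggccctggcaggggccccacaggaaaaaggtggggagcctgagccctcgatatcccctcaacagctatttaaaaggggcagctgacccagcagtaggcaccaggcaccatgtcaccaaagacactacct
Ncmap upstream start, chr4:135398178-135398477, minus strand: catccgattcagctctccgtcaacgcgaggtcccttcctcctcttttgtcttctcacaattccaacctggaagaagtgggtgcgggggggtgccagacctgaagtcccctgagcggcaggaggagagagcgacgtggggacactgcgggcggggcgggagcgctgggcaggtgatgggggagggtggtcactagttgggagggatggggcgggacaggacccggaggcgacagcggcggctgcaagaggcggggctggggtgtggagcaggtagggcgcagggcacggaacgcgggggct
Ncmap downstream start, chr4:135385623-135385922, minus strand: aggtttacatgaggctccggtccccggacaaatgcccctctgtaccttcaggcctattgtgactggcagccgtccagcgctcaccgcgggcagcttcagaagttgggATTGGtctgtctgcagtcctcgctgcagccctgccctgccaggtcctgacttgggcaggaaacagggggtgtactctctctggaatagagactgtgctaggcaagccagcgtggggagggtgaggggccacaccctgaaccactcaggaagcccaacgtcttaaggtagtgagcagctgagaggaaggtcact
The 1 match was a CCAAT box on the reverse strand in the window of the downstream Ncmap start, and 37.4% of all 32851 promoter windows held that motif. AACAAT was held by 10.7% of the windows, ACAAAG by 18.7% and TATAAA by 13.6%, and none of the 3 windows shown had them, which says only that these letters are not in these stretches. The windows also differed in base composition. The upstream Ncmap window had 67.7% G and C with 22 CpG steps, the downstream Ncmap window 59.7% with 9, and the Cytl1 window 55.0% with 4, against medians of 52.7% and 7 over all windows.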

How the data were processed

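Cultured rib chondrocytes were measured on Affymetrix whole-genome mouse arrays, 1 for the miR-140 knockout and 1 for the wild type, grouped by sample title. The deposited values are log2 signals that the authors made with Robust Multichip Average (RMA), per the design text, in Affymetrix Expression Console 1.1, per the submitters' processing notes. RMA subtracts background, gives all arrays the same distribution and combines the probes of each set, which would remove any shift common to most genes. The sorted values of both arrays differed by at most 0.157. The log2 scale was read from the values. The number of arrays limits the precision.

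Of 45101 probe sets, 34945 carried a single gene symbol in the platform annotation, 932 carried several and name no gene here, 9160 were not listed, and 64 were controls. For each gene the brightest probe set, by its mean over the arrays, was used, with every probe set of the 5 genes given too, and genes with a log2 signal of at least 7 in either array were compared. Differences of at least 2-fold were counted. Named genes were the 5 genes, all listed partners, up to 4 genes with the largest differences in other lists, the 3 nearest in difference, and Wwp2, Xist and Kdm5d. For some of the lists, defining markers of the cell type are given as well. The 5 genes and the 10 lists were chosen with earlier results of these data known. Alternatives tried were lowess centring (span 0.2, statsmodels 0.14.6), median centring, another round of quantile normalization, the mean of all probe sets, probe sets of 1 transcript, low values raised to 7, floors of 6, 8 and none, and a 1.5-fold threshold. Python 3.11.15 was used. Coordinates are given for the RefSeq sequences alone (GRCm38.p6), since the array values name no build.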

Additional observations from a re-analysis of the deposited data

How the results depend on the processing

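The differences of the 5 genes kept their direction in all 6 other settings run for them, at -2.90 to -2.86 for Snorc, -2.36 to -2.32 for Ncmap, -2.07 to -2.04 for Scrg1, -1.54 to -1.48 for Cytl1 and 0.24 to 0.37 for Edil3. Raising low values to 7 could change none of the 5, whose values at the probe sets used all lie above it, nor could the choice of probe set change the 4 genes with a single one, so those settings say nothing of their stability. The second Edil3 probe set, added after the data were seen, stood at 0.97 or higher under the 3 other scalings and passed 2-fold after lowess centring. A 1.5-fold threshold by its construction raised the counts over all genes to 352 lower and 154 higher, against 121 and 47 at 2-fold. The osteoblast median moved to -0.11 with a floor of 6 and to -0.14 with no floor, where more dim genes entered. No paired analysis was possible because each genotype has 1 array and the labels carry no replicate numbers. With 1 array for each genotype none of these values has a replicate check, and differences that reach signals near 7 are less sure than those of brighter probe sets.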
